A study of Mus musculus with 2 samples.

Results

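Crypt-type goblet cells were taken here as cells in which 6 secretory genes, Agr2, Rep15, Guca2a, Fkbp11, Ccl9 and Spdef, were high and did not fall below 6 genes of mature mucus-filled goblet cells, Clca1, Zg16, Muc2, Fcgbp, Sytl2 and Mxd1. Each gene was put on a log scale and standardized over all kept cells, and the means of the 2 gene sets gave score B (crypt-type) and score A (mature). A cell was a member where B was above 0.5 and at least as high as A, and where defensin genes (22 symbols starting Defa) held under 10% of its UMIs, the unique molecules counted. The rule found 2240 members among 8761 kept cells, 896 of 3129 in the library labelled WT and 1344 of 5632 in the library labelled NFKO. The name crypt-type is a working name, since the position of a cell along the crypt and villus was not measured.

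The study asked how loss of the transcription factor FoxO1 in cells that have expressed Neurog3 alters the epithelium of the mouse small intestine, by 10x 3′ single-cell RNA sequencing of cells sorted for the red protein tomato. WT cells came from Neurog3Cre; Rosa26tdtomato mice and NFKO cells from Neurog3Cre-FoxO1 f/f; Rosa26tdtomato mice, all 4-6 weeks old. In both groups the Cre recombinase ran from Neurog3, so tomato marks any cell with a past or present expression of that gene and FoxO1 alleles flanked by loxP sites could be deleted only there. Each group was 1 library from the small intestines of 4 to 5 mice combined, with the pancreas dissected away. There was thus 1 sample per genotype, no test between genotypes was possible, and every interval below is an exact 95% interval for counting error alone.

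Goblet cells secrete the gel-forming mucin Muc2 and the proteins that are packed with it, and they arise from crypt progenitors that escape Notch signalling and switch on Atoh1. Muc2 is folded, linked by disulphide bonds and glycosylated in the endoplasmic reticulum (ER) and the Golgi, so young goblet cells hold a large secretory apparatus. Cells then move up towards the villus, where genes such as Clca1 and Zg16 are high. Agr2 encodes an ER disulphide isomerase that mucin production needs, Fkbp11 an ER prolyl isomerase, Spdef a transcription factor of goblet and Paneth maturation, Guca2a the peptide guanylin, Ccl9 a chemokine and Rep15 an effector of the vesicle protein Rab15.

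The 2 libraries differed in more than their label. The members held 25536018 UMIs in WT and 39108044 in NFKO, with a median per cell of 26394.5 and 28882.5 UMIs and of 4366 and 4739.5 genes. Foxo1 itself, at 9.48 CPM (UMIs of a gene per 1000000 UMIs of the cells) in WT members and 8.62 CPM in NFKO members, gave an NFKO over WT ratio of 0.909 (0.769 to 1.08). Counts from the 3′ end need not see a deletion within the gene, so the genotype of the library labelled NFKO was not shown by these values. Cells typed by Xist and 4 Y-linked genes were mostly male in WT (776 of 896 members) and mostly female in NFKO (1146 of 1344). Genotype, library, sex of the mice and any difference in handling therefore cannot be told apart. Taking only the 87 NFKO members typed as male removes the difference in sex and none of the others. Of the deposited barcodes, 38.1% in WT and 25.3% in NFKO were removed by the filters on genes, UMIs and mitochondrial share. Among the barcode sequences, 6 occurred in both libraries, 4 of them among the kept cells and 1 among the members.

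Members made up 28.6% (27.1 to 30.3) of the WT cells and 23.9% (22.8 to 25) of the NFKO cells, a ratio of 0.833 (0.765 to 0.908). This order depended on the standardization: with genes standardized within each library the ratio was 1.00, and over all deposited barcodes it was 1.03. Mature goblet cells, taken as cells with A above 0.5 and above B and under 10% defensin UMIs, were 247 cells (7.89%) in WT and 1082 cells (19.2%) in NFKO. They were shallower than the members, with a median of 11938 UMIs in WT and 7706 in NFKO. Cells with 10% or more of defensin UMIs, which were kept apart, numbered 242 and 237.

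**Figure D1:**
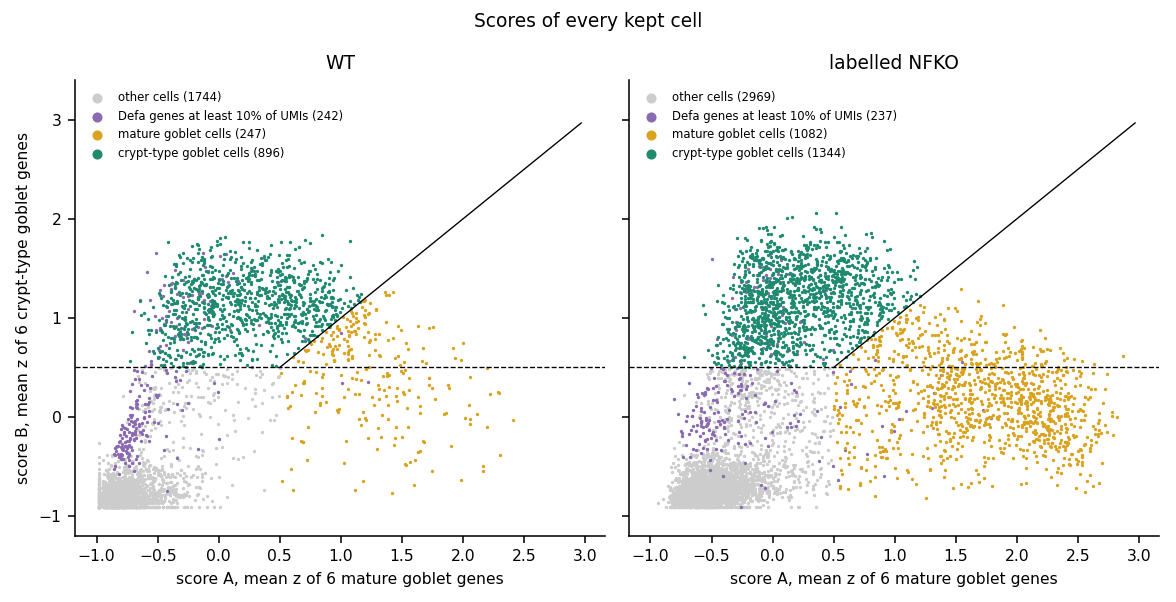
Score A (mature goblet genes, horizontal, mean z-score) against score B (crypt-type genes, vertical, mean z-score) for each kept cell of the WT and NFKO libraries, 1 point a cell. The dashed line is B at 0.5 and the solid line is equal A and B; the 896 WT and 1344 NFKO members lie above both, and run without a break into the cells beneath the cut.

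The class was a range with no gap at its edge, as the plot of both scores shows. B passed 0.5 in 1101 WT and 1639 NFKO cells, of which 120 and 232 were left out because A was higher and 85 and 63 because of their defensin share. Within 0.1 of the cut, 33 WT and 53 NFKO members lay inside and 31 and 64 cells just outside. In these 2 rims Agr2 was at 9809 CPM inside and 8854 CPM outside in WT, and at 13796 and 11649 CPM in NFKO. Zg16 went the other way across the cut, with 351 CPM inside and 3261 CPM outside in WT, and 1472 and 2962 CPM in NFKO. The genes of score A did not all share this order. Mxd1 was also lower inside in both libraries, but Sytl2 was higher inside in both. Muc2 was at 1765 CPM inside and 1785 CPM outside in WT, and at 1560 and 1236 CPM in NFKO. Among the members, A was itself above 0.5 in 271 WT and 324 NFKO cells and below 0 in 328 and 465.

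The 6 genes of score B chose the members, so their levels are given as a description. Agr2 (chromosome 12, 35992907 to 36004087, plus strand, GRCm38) stood at 23231 CPM (23172 to 23290) in WT and 28315 CPM (28262 to 28368) in NFKO members. Over single members, its middle 50% of cells ran from 13802 to 32422 CPM in WT and from 18421 to 36532 CPM in NFKO. Agr2 was thus spread more widely within each library than between the libraries. Guca2a (chromosome 4, 119637704 to 119639471, plus strand) was at 4067 CPM in WT and 3167 CPM in NFKO. Ccl9 (chromosome 11, 83572919 to 83578636, minus strand) was at 779 and 1089 CPM. Rep15 (chromosome 6, 147032584 to 147034245, plus strand) was at 486 and 449 CPM and Fkbp11 (chromosome 15, 98724366 to 98728198, minus strand) at 465 and 457 CPM, both nearly level between the libraries. Spdef (chromosome 17, 27714352 to 27728955, minus strand) was at 221 and 291 CPM. All 6 genes had a UMI in 800 of the 896 WT members (89.3%) and in 1148 of the 1344 NFKO members (85.4%).

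Ccl9 was the least even of the 6 between cells. Its median over members was 496 CPM in WT, with a middle range from 194 to 1027 CPM, and 841 CPM in NFKO, with a middle range from 330 to 1595 CPM. In mature goblet cells the median was 0 in both libraries. To gauge the background of free RNA, tuft cells were read (98 in WT and 190 in NFKO, median 6740 and 16610.5 UMIs). They held 9.13 CPM of Ccl9 in WT and 60.8 CPM in NFKO, and 156 and 1592 CPM of Agr2. As with the Paneth sums below, the NFKO values need not be a level of free RNA. The members' levels of both genes lay well above those of tuft cells in each library.

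To see how far a gene was high without its own help, each gene of score B was left out of the score in turn and the members were chosen again. Ccl9 was then 7.72 times (WT) and 12.6 times (NFKO) its level in mature goblet cells. Fkbp11 was 1.74 and 5.44 times, Agr2 1.51 and 2.56 times, and Spdef 1.26 and 1.53 times that level. Rep15 (0.944 and 1.16) and Guca2a (0.941 and 1.49) were close to 1 in WT. By summed counts, in which deep cells weigh more, these 2 genes thus stood at about the same level in both kinds of WT goblet cell. Of the genes of score A, Zg16 stood at 10772 CPM in WT and 11274 CPM in NFKO members and Muc2 at 4612 and 3885 CPM, against 63454 and 154842 CPM of Zg16 and 12760 and 22228 CPM of Muc2 in mature goblet cells.

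The members were next set beside the mature goblet cells of the same library, gene by gene. The scores define both classes, so every value of this comparison is a description of cells chosen from these counts. The 2537 genes compared reached 50 CPM in 1 class and 100 UMIs over both classes in each library. Of these, 621 (24.5%) were at least 1.5-fold higher in members in both libraries and 236 (9.3%) at least 1.5-fold lower. At 2-fold there were 172 (6.78%) and 103 (4.06%), and 7 genes (0.276%) were past 1.5-fold in opposite directions in the 2 libraries. The median gene was itself higher in members than in mature cells, by 0.23 on the log2 scale in WT and 0.54 in NFKO. Relative to the median gene, 314 genes (12.4%) were higher and 415 (16.4%) lower. List medians below are therefore relative to the median gene, while ratios of single genes are of CPM.

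Rnase1 and genes of growth and division led the genes outside the scores. The highest smaller ratio of the 2 libraries belonged to Rnase1 (chromosome 14, 51144998 to 51146785, minus strand), a secreted ribonuclease, at 172 CPM in WT and 283 CPM in NFKO members against 12 and 33.8 CPM in mature goblet cells, ratios of 14.4 (10.9 to 19.3) and 8.37 (7.66 to 9.17). Its UMIs were in 57.5% of WT and 71.7% of NFKO members. Birc5 (survivin, a protein of the mitotic chromosome) was 6.81 and 4.66 times, and Ube2c (a ubiquitin-conjugating enzyme of mitotic exit) 4.48 and 6.27 times its level in mature cells. Mki67, the proliferation antigen, was at 82.9 and 91.3 CPM against 22.8 and 16.3 CPM. Srm, the spermidine synthase, Lyar and Gnl3, both nucleolar proteins, and the chromatin proteins Hmgn2 and Hmgb2 were each 3.37- to 6.60-fold higher. All 7 genes counted of the cycling list were past 1.5-fold, and the list's relative median was 1.63 in WT and 1.68 in NFKO. A cycling score above 1 marked 93 WT members (10.4%) and 212 NFKO members (15.8%), so most members were not in this class.

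Ribosomal protein genes stood out as a block. The 101 symbols starting Rpl or Rps held 19.2% of the UMIs of WT members and 18.9% of those of NFKO members, against 10.2% and 5.76% in mature goblet cells. The difference was 8.98 percentage points in WT and 13.2 in NFKO, and Zg16 alone accounted for 63454 and 154842 CPM of the mature cells' total. This set was chosen after its values were seen.

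Among secreted peptides, the members differed from mature goblet cells in their second guanylin. Guca2b (chromosome 4, 119656607 to 119658954, minus strand), which encodes uroguanylin, was at 568 CPM in WT and 634 CPM in NFKO members and at 163 and 172 CPM in mature cells, ratios of 3.48 and 3.69. Retnlb, a goblet resistin-like protein that acts on bacteria, was at 559 and 402 CPM against 183 and 140 CPM. Itln1 (intelectin, a lectin of goblet and Paneth cells; chromosome 1, 171518122 to 171535294, minus strand) was 3.99 and 3.15 times its level in mature cells. The transcripts of these 3 genes were higher in members than in mature cells in each library, but Itln1 in NFKO was higher still in tuft cells, as given below. The rest of the mucus list went the other way. Of its 13 genes counted, 9 were lower in members, and its relative median was -1.13 in WT and -1.99 in NFKO. Tff3, the trefoil peptide, was at 28354 CPM in WT members and 54297 CPM in mature cells. In NFKO it was at 24040 CPM against 81268 CPM. Spink4, at 27851 and 22206 CPM, differed little between the classes, with ratios of 0.902 and 1.16.

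Goblet genes outside the scores split in the same manner. Creb3l1, a membrane-bound transcription factor of secretory cells, was at 238 and 276 CPM, 2.0 and 2.77 times its level in mature cells, and Pdia5 was 2.65 and 6.14 times. The 6 lower genes were Tff3, Bcas1, Fer1l6, Capn9, Ramp1 and S100a6, with S100a6 (a calcium-binding protein) at 657 and 775 CPM against 1589 and 4035 CPM. The others of the 20 were not past 1.5-fold in 1 direction in both libraries. The list's median was near 0 as CPM (-0.09 in WT and 0.01 in NFKO) and -0.33 and -0.53 relative to the median gene, so its sign in NFKO rests on the scaling.

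**Figure D2:**
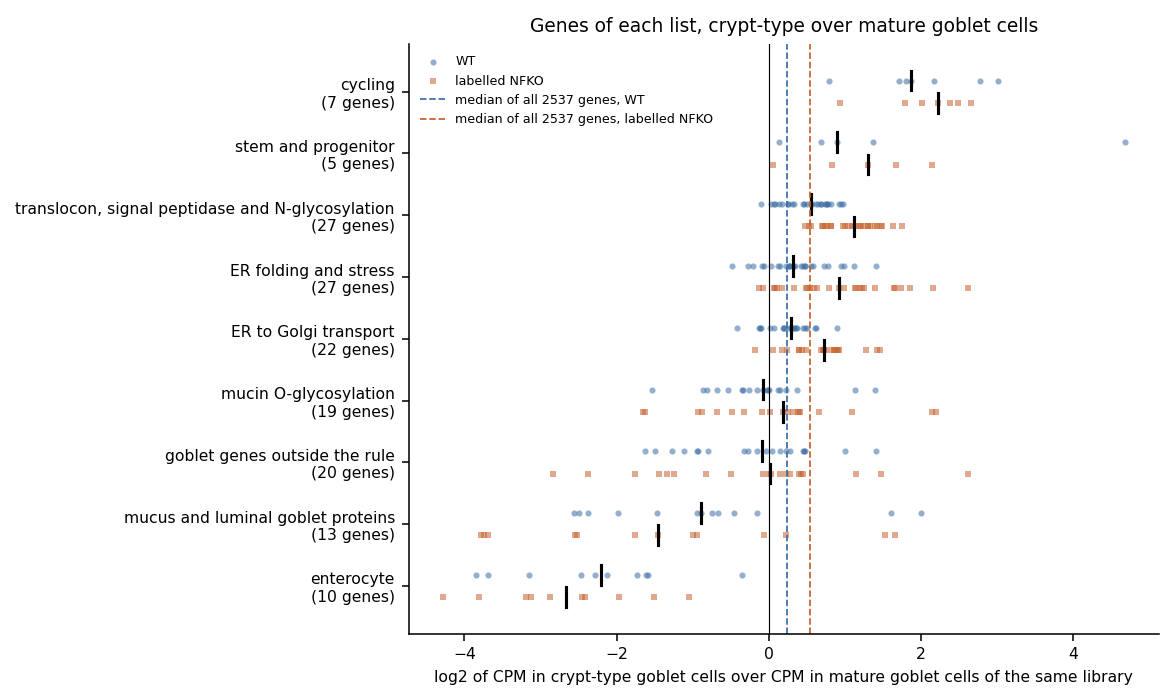
Log2 ratio of CPM, members over mature goblet cells, for the genes of each list, in WT and NFKO; each point is 1 gene, the black bar is the list median and the dashed lines are the medians of all 2537 genes (0.23 in WT and 0.54 in NFKO). Cycling, stem and translocon lists lie to the right of the dashed lines in both libraries, and mucus and enterocyte lists to the left.

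The ER apparatus was described by 3 lists. The translocon, signal peptidase and N-glycosylation list holds the channel through which new proteins enter the ER. Of its 27 genes counted, 12 were higher and 0 lower, a larger share higher than the 24.5% of all genes. Relative to the median gene 3 were higher and 0 lower, a share higher that is close to the 12.4% of all genes. Its relative median was 0.31 in WT and 0.58 in NFKO. Sec61b, a subunit of the channel, was at 1741 CPM in WT and 1839 CPM in NFKO members against 924 and 595 CPM, and Ssr2, a subunit of the translocon-associated complex, was 1.97 and 3.36 times its level in mature cells. Of the ER folding and stress list, 6 of 27 genes were higher and 0 lower, a share close to the 24.5% of all genes, and 4 were higher and 1 lower relative to the median gene, with relative medians of 0.08 and 0.38, which in WT is close to the median gene. The 6 were the disulphide isomerases Pdia5 and Pdia6, Sdf2l1, Creld2, Manf and Herpud1. Pdia6 was at 1049 and 1179 CPM against 614 and 355 CPM, and Manf, a secreted ER protein, at 965 and 1215 CPM against 502 and 384 CPM. Hspa5, the main chaperone of the ER (BiP), was at 1689 CPM in WT and 1750 CPM in NFKO members, 1.39 and 2.38 times its level in mature cells, and so past 1.5-fold in NFKO and not in WT. P4hb, the most general disulphide isomerase, had ratios of 0.862 and 1.05. Of the ER to Golgi transport list, 3 of 22 genes were higher, Tmed9, Lman1 and Lman2, which carry cargo out of the ER, a smaller share than the 24.5% of all genes. Relative to the median gene 1 was higher and 1 lower, and the relative medians were 0.05 and 0.19.

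Many ER chaperone genes hold the ER stress response element (ERSE), to which NF-Y and ATF6 bind. In all, 5 stretches of promoter with this motif are printed, since they belong to ER genes whose levels are given here or above and show which letters the genes share. They are from RefSeq on GRCm38.p6, each read 5′ to 3′ on the strand of its gene, with 12 bases on either side, and the capitals mark the 19 letters of the motif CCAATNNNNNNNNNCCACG or of its reverse complement.
Hspa5, chr2:34772013-34772055, plus strand: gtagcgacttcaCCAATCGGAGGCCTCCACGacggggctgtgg
Hsp90b1, chr10:86705626-86705668, minus strand: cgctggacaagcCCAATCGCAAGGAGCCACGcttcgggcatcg
Pdia6, chr12:17266479-17266521, plus strand: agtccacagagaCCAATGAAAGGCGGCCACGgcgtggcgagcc
Creld2, chr15:88819508-88819550, plus strand, motif on the opposite strand: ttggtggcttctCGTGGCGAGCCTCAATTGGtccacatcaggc
Calr, chr8:84847063-84847105, minus strand, motif on the opposite strand: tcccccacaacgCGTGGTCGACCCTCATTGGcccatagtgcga

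Both strands of the 250 bases before and 50 bases after each gene's start were searched. The motif was in 9 of the 30 genes of the ER folding and stress list that matched a RefSeq promoter (30%) and in 37 of all 27025 genes (0.137%). It was in 0 of 21 promoters of the translocon list, 0 of 20 of the ER to Golgi list, 0 of 5 of score B and 0 of 3 of score A. The genes with the motif were not those with the highest ratios alone: Hspa5, Calr and Hsp90b1 were 1.24- to 1.47-fold higher in WT members than in mature cells and 2.19- to 2.63-fold in NFKO, and Creld2 was 1.98- and 3.61-fold higher. Pdia5 and Sdf2l1, with the highest ratios of the list, had no match in this window. Another motif, TGACGTGG, whose reverse complement shares the letters CCACG with the ERSE, was in 5 of the 20 ER to Golgi promoters (25%) and in 0.714% of all genes.

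Mucin glycosylation was split. Gne, the first enzyme of sialic acid synthesis, was at 74.1 CPM in WT and 75.4 CPM in NFKO members against 28.1 and 16.5 CPM, and the sialic acid transporter Slc35a1 was 2.19 and 4.42 times its level in mature cells. In members 4 genes of the list were lower, namely Galnt1, which adds the first sugar to mucin, B3gnt7, St3gal4 and Chst4. Chst4, a sulphotransferase, was at 69.7 and 83.1 CPM against 123 and 159 CPM. The median of the 19 genes was -0.08 in WT and 0.18 in NFKO as CPM, and -0.32 and -0.36 relative to the median gene, so its sign in NFKO turns with the scaling.

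Progenitor and lineage genes came next. Olfm4, a stem cell gene, was at 142 CPM in WT and 59.3 CPM in NFKO members against 5.52 and 33.5 CPM in mature cells. In WT 50% of its UMIs lay in 14 members and in NFKO in 10, so the level came from few cells. Sox9, a transcription factor of the crypt, was at 161 and 107 CPM, 2.57 and 4.42 times its level in mature cells, and Hopx was 1.87 and 2.46 times. Dll1, the Notch ligand of secretory progenitors, was at 97.9 and 91.8 CPM against 61.7 and 35.2 CPM. Atoh1, which starts the secretory lineage, was at 146 and 219 CPM with ratios of 1.36 and 1.02. Of 11 secretory transcription factors counted, 3 were higher (Spdef, which is in score B, Sox9 and Creb3l1) and 0 lower, close to the share of all genes (24.5%), with a relative median of 0.19 in WT and -0.26 in NFKO. Cd24a, a surface protein of the crypt base, had a UMI in 95.8% of WT and 96.1% of NFKO members and in 61.1% and 61.3% of mature cells. With each cell thinned to 2000 UMIs the shares were 49.1% and 52.7% in members and 17.9% and 25.6% in mature cells.

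Genes of other classes set the lower edge of the comparison. Fabp6, the ileal bile acid binding protein, was at 42.5 and 13.7 CPM in members and had the lowest ratios, 0.0425 and 0.0295. Apoa1, Fabp1, Anpep and Mttp, genes of lipid uptake and the brush border, had ratios from 0.0513 to 0.187, and all but 1 of the 10 enterocyte genes counted were lower in members. Muc3, a mucin of the apical membrane, had ratios of 0.192 and 0.0776. Gsta4 (0.0919 and 0.0784) and the galectin Lgals3 (0.123 and 0.0455) were also low. In contrast Gpx2, a crypt glutathione peroxidase, was at 1505 and 1252 CPM in members, 3.19 and 5.01 times its level in mature cells, and Prdx4, the peroxiredoxin of the ER, was 2.97 and 5.12 times.

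Paneth genes were found in the members, with sums that have to be read against free RNA and against their spread over cells. Mmp7 was at 1054 CPM in WT and 837 CPM in NFKO members, 2.68 and 3.66 times its level in mature cells, against 38.8 and 362 CPM in tuft cells. Lyz1, lysozyme, was at 931 and 583 CPM in members, 269 and 338 CPM in mature cells, and 126 and 4076 CPM in tuft cells. In NFKO the Lyz1 level of members was thus below that of tuft cells, and so was Itln1, at 1876 CPM in members and 2597 CPM in tuft cells. In WT both genes were higher in members than in tuft cells, where Itln1 was at 163 CPM. The Lyz1 median over single members was 103 CPM in WT and 112 CPM in NFKO. In mature cells it was higher, at 118 and 226 CPM. Defa24 medians were also lower in members, while those of Itln1 were higher, at 519 and 584 CPM against 233 and 309 CPM. A Paneth score above 1 marked 27 WT members (3.01%) and 40 NFKO members (2.98%), so most members were not in this class. The whole Paneth list summed to 20336 CPM in WT and 14333 CPM in NFKO members, 8834 and 9474 CPM in mature cells, 2171 and 34685 CPM in tuft cells, and 620265 and 592239 CPM in the cells that scored for the list. Unlike the members, tuft cells had no limit on their defensin share. The median of that share was 0.155% in NFKO tuft cells and 0.258% in NFKO members, the reverse of the order of the sums. The Paneth sums of NFKO tuft cells therefore need not be a level of free RNA. The part of free RNA and of the rule's defensin limit in these values was not tested.

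The members were then ordered by score A into 3 groups of equal size over both libraries, with the cuts at -0.02 and 0.40. Depth moved little with this order, with medians from 25808 to 30222 UMIs. Cycling cells were 21.8% (17.3 to 26.7), 7.76% (4.73 to 11.8) and 1.5% (0.488 to 3.46) of WT members from the lowest to the highest group, and 28.6% (24.4 to 33.1), 14.6% (11.6 to 18) and 3.87% (2.23 to 6.22) of NFKO members. The order was the same in both libraries. The intervals cover counting error alone, and the groups were cut from score A, which the rule uses. This order is thus a description of the cells chosen. Mki67 was at 144, 66.7 and 25.2 CPM in WT and at 154, 90.8 and 26.9 CPM in NFKO. Olfm4 went from 320 to 51.3 to 5.78 CPM in WT and from 129 to 37.7 to 12.8 CPM in NFKO. Sox4, a transcription factor of early secretory progenitors, went from 60.3 to 15 CPM in WT and from 51.9 to 21.3 CPM in NFKO. These genes of division and of progenitors were highest where the mature genes were lowest.

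**Figure D3:**
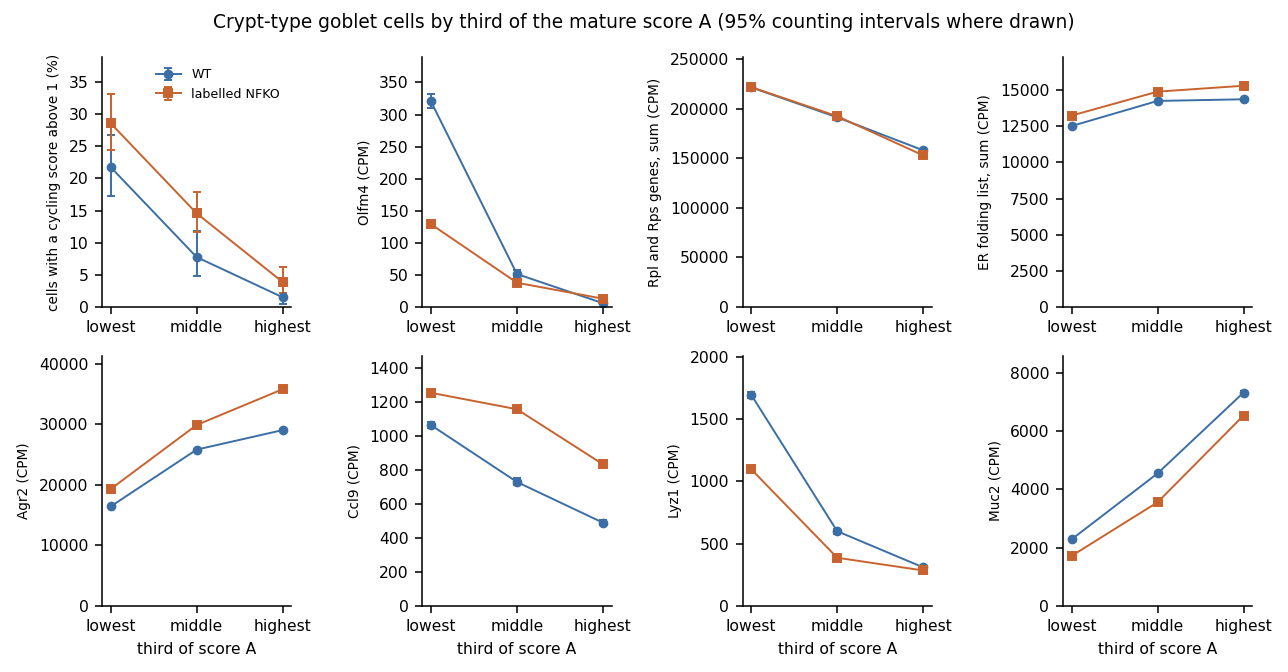
Levels in the members by group of score A (lowest, middle, highest) for WT and NFKO: share of cycling cells (percent), and CPM of Olfm4, of all Rpl and Rps genes, of the ER folding list, of Agr2, Ccl9, Lyz1 and Muc2. Bars, where drawn, are 95% counting intervals; cycling cells go from 21.8% to 1.5% in WT and from 28.6% to 3.87% in NFKO, while Agr2 and Muc2 go up.

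The plot by group of score A also shows that the 6 genes of score B did not move as 1 set. Agr2 was at 16421, 25818 and 29044 CPM in WT and at 19300, 29887 and 35802 CPM in NFKO, higher with more of the mature score. Rep15 (327, 508 and 652 CPM in WT, 256, 453 and 645 CPM in NFKO) and Guca2a (3074, 4219 and 5085 CPM in WT) had the same order. Ccl9 went against it, from 1065 to 729 to 490 CPM in WT and from 1255 to 1158 to 834 CPM in NFKO. Fkbp11 was nearly level in WT, at 433, 485 and 487 CPM, and Spdef was lowest in the highest group, at 211 CPM in WT and 250 CPM in NFKO. Since a member must have B at least as high as A, the rule itself ties score B to score A here, and these orders are a description of the cells it chose.

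Secretory load and growth also separated along this order. Muc2, which is part of score A, was at 2281, 4545 and 7322 CPM in WT, and Tff3, which is not, at 14882, 28223 and 43811 CPM in WT and 13553, 22033 and 37306 CPM in NFKO. Ribosomal protein genes together went from 221297 to 191099 to 157853 CPM in WT and from 221545 to 192205 to 152752 CPM in NFKO. The ER folding list moved little, at 12515, 14254 and 14368 CPM in WT and 13239, 14896 and 15305 CPM in NFKO, and the translocon list ran from 12495 to 13646 CPM in WT. Hspa5 was at 1560, 1826 and 1733 CPM in WT. These ER levels in the members with the lowest mature score were thus not far below those of the other groups. Every member had to have B above 0.5, and score B holds the ER genes Agr2 and Fkbp11. As for the genes of score B, these orders are therefore a description of the cells the rule chose.

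Antimicrobial genes divided into opposite orders. Reg3b, a bactericidal lectin, was at 13219, 19136 and 27677 CPM in WT, and Reg3g at 8272, 11554 and 16059 CPM, both higher with score A. Lyz1 went from 1696 to 599 to 309 CPM in WT and from 1097 to 386 to 284 CPM in NFKO, and Itln1 from 5257 to 2861 to 1870 CPM in WT and from 2911 to 1727 to 978 CPM in NFKO. Both levels were highest in the group with the lowest mature score in each library, though over all NFKO members they lay below those of NFKO tuft cells. Lypd8, which keeps bacteria from the epithelium, was at 1869, 2909 and 4408 CPM in WT. Among lineage genes, Atoh1 was nearly level, at 145, 151 and 144 CPM in WT and at 225, 225 and 204 CPM in NFKO. Notch ligand Dll1 was lowest in the highest group, at 105, 106 and 83.4 CPM in WT and at 99.9, 99.9 and 74.0 CPM in NFKO. Sox9 went from 185 to 132 CPM in WT and from 133 to 70.9 CPM in NFKO. Klf4 went the other way, from 318 to 515 CPM in WT and from 311 to 466 CPM in NFKO. Neurog3 was at 1.89, 0.301 and 0.453 CPM in WT and at 8.82, 6.94 and 1.24 CPM in NFKO, from 25 UMIs over all WT and 226 over all NFKO members.

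The NFKO library was then set beside the WT library within the members. The 2595 genes compared reached 50 CPM in 1 library and 100 UMIs over both. Of these, 80 (3.08%) were at least 1.5-fold higher in NFKO and 68 (2.62%) at least 1.5-fold lower. At 2-fold there were 19 (0.732%) and 21 (0.809%). The median gene was 0.11 higher on the log2 scale in NFKO, and relative to it 53 genes (2.04%) were higher and 93 (3.58%) lower. The secretory apparatus of the members was close to level. None of the 27 translocon genes, 22 ER to Golgi genes and 18 O-glycosylation genes counted was past 1.5-fold, and of 28 ER folding genes only Ddit3 was, at 131 CPM in WT and 84.2 CPM in NFKO. The files hold 2 entries with the symbol Ddit3, and the one with more UMIs was used. The median ratios were 0.14, 0.17, -0.02 and 0.05 on the log2 scale, the last turning to -0.06 relative to the median gene. Hspa5 had 1689 and 1750 CPM, Pdia6 1049 and 1179 CPM, and Fkbp11 a ratio of 0.981 (0.958 to 1.00).

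Goblet genes differed by less than 1.5-fold with few exceptions. Agr2 was 1.22 times, Ccl9 1.40 (1.37 to 1.42) times and Spdef 1.32 times as high in NFKO, and Guca2a 0.779 times. Of the goblet genes outside the scores, 1 of 19 was past the fold, Scin, an actin-severing protein, at 80.5 CPM in WT and 168 CPM in NFKO. Of 13 mucus genes, Ang4, an antimicrobial angiogenin, was higher, at 25.1 and 67.8 CPM, and Itln1 lower, at 3463 and 1876 CPM. Ang4 and Itln1 are both Paneth-cell genes as well, so the 2 exceptions of the list are not gel mucins. Atoh1 was 1.49 (1.44 to 1.55) times as high in NFKO, and 1.38 times relative to the median gene. Sox9 was lower, at a ratio of 0.664, as was Hes1 at 0.675. Between male-typed members the ratios were 0.725 for Sox9 and 0.915 for Hes1, so Hes1 was near level there.

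Heat shock genes held the lowest ratios of single genes. Hspa1a (chromosome 17, 34969190 to 34972156, minus strand), an inducible chaperone of the cytosol, was at 486 CPM in WT and 27.8 CPM in NFKO members, a ratio of 0.0572 (0.0538 to 0.0609), and had a UMI in 82.1% and 14.7% of members. Its neighbour Hspa1b, with which it is nearly identical so that reads may be split between them, had a ratio of 0.0739. Hsph1 (0.218), Dnajb1 (0.348) and Hsp90aa1 (0.379) were also lower, as were Dnaja1 and Jun, 7 of the 20 genes counted, with 0 higher. The difference was not restricted to the members, since Hspa1a was at 145 and 6.60 CPM in tuft cells. Genotype and cell preparation cannot be told apart here, since each genotype was 1 preparation.

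Secreted growth factors were the next group. All 4 genes counted of the EGF ligand and injury list were lower in NFKO, with a median of -1.61 on the log2 scale. Areg (amphiregulin) was at 160 and 47.4 CPM, a ratio of 0.295 (0.279 to 0.312), and Hbegf at 107 and 38.8 CPM, a ratio of 0.362 (0.340 to 0.386). Lrg1 was at 64.0 and 16.6 CPM. Both EGF receptor ligands were thus lower by more than 2-fold. In the male-typed members of both libraries the ratios were 0.302 for Areg, 0.231 for Hbegf and 0.360 for Lrg1. Cfi, complement factor I, was at 50.4 and 15.9 CPM over all members but had a ratio of 0.912 between male-typed members. Rnd3, a small GTPase, and Naip5, a sensor of bacterial flagellin, had ratios of 0.364 and 0.366.

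Mptx1 and Gm10260 were far higher in NFKO members. Mptx1 (chromosome 1, 174330518 to 174332873, plus strand), a mucosal pentraxin of Paneth cells, was at 29.7 CPM in WT and 2014 CPM in NFKO, a ratio of 67.8 (63.2 to 73.0). Its UMIs were in 13.4% and 59.6% of members, yet 50% of them lay in 9 WT and 26 NFKO members. Mature goblet cells held 72.3 and 2269 CPM and tuft cells 0 and 55.6 CPM, so the difference was found in the other classes too. Gm10260 (chromosome 13, 97760072 to 97760632, minus strand) was at 0.509 and 102 CPM, a ratio of 200 (117 to 375), and its name marks a predicted gene whose reads may belong to a near-identical copy. Ocel1 was at 22.2 and 73.9 CPM, 3.32 (3.04 to 3.64) times, with 18.3 and 73.7 CPM in tuft cells. In male-typed members (776 in WT, 87 in NFKO) the ratios were 93.3 for Mptx1 and 2.58 for Ocel1. Gm10260 was at 0.434 CPM (10 UMIs) in male-typed WT and 399 CPM (1104 UMIs) in male-typed NFKO members, a ratio of 920.

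Defensin, antimicrobial and interferon genes did not share a direction. Defa21 and Defa22 were higher, at 45.3 and 108 CPM and at 57.9 and 109 CPM, but belong to a family of near-identical genes. Lyz1 was lower (931 and 583 CPM), Reg3g was lower (11818 and 6696 CPM, a ratio of 0.567), and Pigr, the receptor that carries IgA across the epithelium, was lower (1646 and 1089 CPM). Of 13 Paneth genes counted 4 were higher and 2 lower. Isg15, an interferon-induced protein, was at 28.0 and 69.3 CPM, but its ratio was 0.945 between male-typed members. In the same male-typed members Itln1 had a ratio of 0.851 and Lyz1 of 0.973, so these genes were near level there, while Reg3g kept a ratio of 0.557.

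Cycling genes were higher in NFKO members. Of 10 counted, 5 were past 1.5-fold and 0 beneath, with a median of 0.67 on the log2 scale and 0.56 relative to the median gene. Ube2c was at 88.7 and 186 CPM, a ratio of 2.10 (2.0 to 2.20), Birc5 1.81 times, Cdk1 1.87 times and Stmn1 1.73 times as high. Mki67 (1.10) and Pcna (0.880) were close to level. Cycling cells were 15.8% of NFKO against 10.4% of WT members, and the share was also higher in each group of score A as given above. The intervals of the 2 libraries overlapped in each group and cover counting error alone, so they do not test a difference. In male-typed members Ube2c had a ratio of 2.62 and Birc5 of 2.39. Olfm4 was lower, at 142 and 59.3 CPM, but with 50% of its UMIs in 14 and 10 cells and a ratio of 0.869 between male-typed members.

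FoxO genes were found at few UMIs in both libraries. Foxo3 was at 8.73 and 6.85 CPM and Foxo4 at 9.67 and 6.67 CPM, ratios of 0.785 and 0.690. Foxo1 had a UMI in 22.2% of WT and 20.1% of NFKO members, and in 18.4% and 13.7% of tuft cells. With cells thinned to 2000 UMIs the Foxo1 shares were 2.57% and 1.62% in members and 2.20% and 3.39% in tuft cells. Of the 4 genes counted on the list of the FoxO family and target genes, only Cdkn1a, a cell cycle inhibitor, was past 1.5-fold, at 193 and 120 CPM. Relative to the median gene 2 of the 4 were lower and 0 higher. The list's median was -0.39 on the log2 scale and -0.50 relative to the median gene, so the list lay lower in NFKO. Between male-typed members Cdkn1a had a ratio of 0.385. Neurog3 was at 0.979 and 5.78 CPM, with a UMI in 1.00% and 2.16% of members against 1.02% and 2.63% of tuft cells. Its shares in members did not exceed those in tuft cells, and 226 NFKO UMIs lay in 29 cells.

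Insulin genes, which the study followed in this lineage, were at the floor. Ins1 had a UMI in 0 of 896 WT members, which at 3 counts allows a share of up to 0.335%, and in 0 of 1344 NFKO members, which allows up to 0.223%. These limits are on cells with a UMI, not on cells that express the gene. Ins2 was found in 0 WT members and in 3 NFKO members (0.223%, 0.0461 to 0.651). It was found in 4 of 1082 mature goblet cells and 0 of 190 tuft cells of the same library. With 0 and 3 UMIs, no difference in Ins2 between the libraries was detectable at this depth.

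Hormone transcripts of enteroendocrine cells were found throughout the members, and their levels are given for the reading of the gene counts above. The list summed to 2250 CPM in WT and 4876 CPM in NFKO members, to 1032 and 12588 CPM in mature goblet cells, and to 6204 and 8998 CPM in tuft cells. Gip had a UMI in 52.5% of WT and 93.5% of NFKO members, against 42.9% and 94.2% of tuft cells. The source of these UMIs was not tested. Of 9 genes of the list counted 7 hormone genes were higher in NFKO and Gcg was lower, with 50% of the Gcg UMIs in 3 WT and 2 NFKO members. For Gip, at 164 and 1189 CPM, 50% lay in 1 WT and 7 NFKO cells. The list's median was 1.67 on the log2 scale over all members and -1.33 between male-typed members, so its direction turned with the cells taken.

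**Figure D4:**
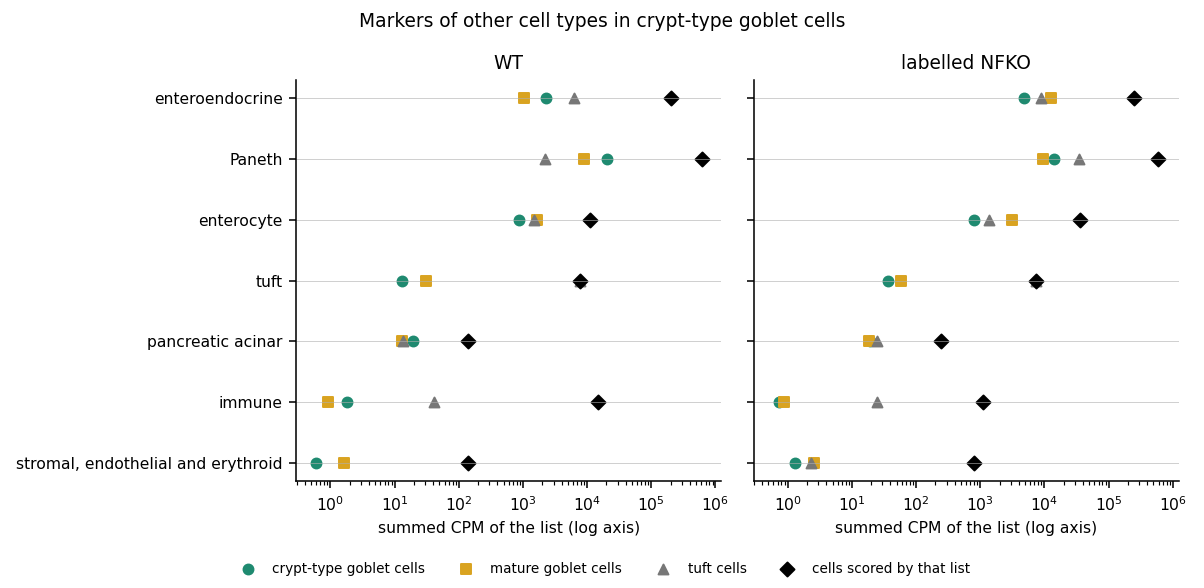
Summed CPM (log axis) of the marker lists of other cell types in members, mature goblet cells, tuft cells and the cells that scored for the list, for WT and NFKO; sums at 0 are not drawn. Immune and stromal markers in members sit near 1 CPM, tuft markers at 13.0 and 36.3 CPM, and the Paneth, enteroendocrine and enterocyte lists at 791 CPM or more.

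Tuft, immune, stromal and pancreatic acinar markers left little trace in the members, unlike the Paneth and enteroendocrine lists given above. The 12 tuft markers summed to 13.0 CPM in WT and 36.3 CPM in NFKO, immune markers to 1.80 and 0.742 CPM, and stromal, endothelial and red cell markers to 0.587 and 1.28 CPM. Cd3e, Cd8a, Gzmb, Col1a1, Dcn and Cdh5 were at 0 in both libraries. Pancreatic acinar markers summed to 19.4 and 19.2 CPM, with Cpa1, Cpb1 and Cela2a at 0. Cela1 was at 18.2 CPM in male-typed WT and 16.1 CPM in female-typed NFKO members. An acinar score above 1 marked 2.68% of WT and 2.08% of NFKO members. Enterocyte markers were at 873 and 791 CPM. The part of these transcripts in the results above was not tested.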

How the data were processed

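Cells sorted for tomato from the small intestine were profiled by the 10x 3′ assay, and the deposited count matrices, made by the authors with Cell Ranger 5.0.1 on mm10 per the labels, hold UMI counts of 32285 genes for 5051 WT and 7540 NFKO barcodes with no normalization. Kept barcodes had 500 genes and 1000 UMIs or more, and a mitochondrial share of 25% or less. The scores used the natural log of 1 plus 10000 times the share of a gene in a cell. Counts were summed per library and class and given as CPM, which is not scaled by gene length. With 1 library per group no test was run. Intervals are exact Poisson, Clopper-Pearson or conditional binomial at 95% and cover counting error only. A count of 0 allows up to 3 counts. Tuft cells were cells with a mean z of the tuft list above 1 that were not members, and cells of other lists were scored in the same manner. Named genes were the 15 highest and 10 lowest ratios to mature goblet cells (by the library nearer to 1), the 12 highest and 12 lowest NFKO over WT ratios, the score genes, a few fixed genes and up to 8 abundant genes of each list. Further list genes named for being past the fold were chosen after their values were seen (B3gnt7, Bcas1, Capn9, Cdk1, Chst4, Creld2, Ddit3, Defa22, Dnaja1, Fer1l6, Galnt1, Gne, Herpud1, Lman2, Pdia5, Ramp1, Retnlb, Scin, Sdf2l1, Slc35a1, St3gal4). The members and lists were chosen with earlier results of these data known. Gene positions are from GENCODE M21 on GRCm38. The automatic doublet caller (Scrublet in scanpy 1.11.5) marked 2 WT and 0 NFKO cells and so did not work. Doublets were kept, and removing the top scores was tried as an alternative. On simulated counts for 2596 genes of the NFKO over WT comparison, 95.9% of the intervals held the true ratio. Python 3.11.15, numpy 2.4.6, scipy 1.17.1 and pandas 2.3.3 were used. The other alternatives tried changed the score rule and its genes, the cell filters, the scaling, the gene minimum and the weight of cells, and took male-typed cells only; the scaling by the median gene and the limit to deep cells for the comparison with mature cells were added after seeing the data.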

Additional observations from a re-analysis of the deposited data

Results flagged for a closer look

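Opposite differences between members and mature goblet cells in the 2 libraries were seen for 6 hormone genes. The ratio of members to mature cells was 13.6 in WT and 0.583 in NFKO for Gcg, 15.7 and 0.562 for Sst, and 5.54 and 0.339 for Ghrl. It was 5.61 and 0.23 for Cck, 3.1 and 0.318 for Gip, and 2.02 and 0.493 for Sct. Each library is 1 sample, so the difference between them was not tested. In WT, 50% of the UMIs lay in 3 members for Gcg and in 1 member for Sst. With the highest doublet scores removed, the WT ratio turned for Gcg, Ghrl and Gip.

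Of the barcodes removed by the filters, 6 of 1922 in WT and 27 of 1908 in NFKO passed the rule on the scores. They are outside every comparison above. Their median was 8125 UMIs in WT, with 27.7% of UMIs from mitochondrial genes, and 824 UMIs in NFKO, with 4.58%.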

How the results depend on the processing

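No paired analysis was possible because each group has 1 library. The cause of each move below was not tested unless the setting itself takes other cells or genes. The share of members, 28.6% in WT and 23.9% in NFKO, was 30.6% and 26.1% with B above 0.25, 25.8% and 20.6% above 0.75, 19.2% and 16.1% above 1.0, 26.1% and 22.4% with a margin of 0.25 over A, 30.3% and 25.3% with at least 5000 UMIs, 19.7% and 20.3% over all barcodes, and 22.2% and 19.9% with thinned cells. The WT share was 24.4% with z-scores within each library, 27.0% without Guca2a, 32.0% with a mitochondrial limit of 10% and 30.6% in male-typed cells, and the NFKO share was 22.6% without Agr2. The ratio of shares turned to 1.00 with z-scores within each library and 1.03 over all barcodes, and was 0.759 with the limit of 10%. The NFKO over WT counts of 80 and 68 genes were 1127 and 709 with no CPM minimum, 21 and 23 with a 200 CPM minimum, and 53 higher relative to the median gene. The counts against mature cells, 621 and 236, were 2384 and 1115 with no minimum, 222 and 46 with 200 CPM, and 314 and 415 relative to the median gene (added after seeing the data). The higher count was 323 with z-scores within each library and 999 with each cell given the same weight. In cells with at least 10000 UMIs (845 and 139, 1213 and 421 cells, also added) it was 517, with 182 lower. Log2 ratios that turned: with B above 1.0, Ghrl -0.51 and Pyy -0.78 (members over mature, WT). With the highest doublet scores removed (78 WT and 254 NFKO cells), Gcg 0.17 (NFKO over WT), and, members over mature in WT, the enteroendocrine list -0.080, Gcg -0.31, Ghrl -1.15, Gip -0.36 and Pyy -0.82. In male-typed cells (NFKO over WT), the enteroendocrine list -1.33, Isg15 -0.081, Fabp1 -0.59, Ghrl -1.61, Neurog3 -0.59, Gip -0.40 and Sst -1.51. Over all alternatives, 1802 values of single named genes stayed within their interval, 1154 moved past it and 13 turned. Depth limits genes near 0.117 CPM in WT and 0.0767 CPM in NFKO, which 3 counts give.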

Other observations

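Cd74, the invariant chain that binds class II histocompatibility proteins, was at 217 CPM in WT and 201 CPM in NFKO members, 2.73 and 2.78 times its level in mature goblet cells, against 104 and 126 CPM in tuft cells. Reg4, a secreted lectin, was at 142 and 146 CPM, 15.8 and 2.51 times. Stress and early response genes such as Hspa8 (1096 and 1035 CPM) and Fos (978 and 1071 CPM) were 1.88- to 2.25-fold higher in members than in mature cells in both libraries, while Klf4, a transcription factor of differentiated goblet cells, was at 417 and 395 CPM with ratios of 0.797 and 0.565. Smoc2, which marks crypt base cells, was at 36.5 and 38.9 CPM, 5.11 and 4.74 times its level in mature cells.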
